A study of Mus musculus with 9 samples.

Results

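The genes described here encode the machinery that copies DNA, from origin licensing to chromatin assembly. The set was a list of 37 genes, of which 36 had at least 1 probe set annotated to them alone, out of 12393 named genes on the array. Chaf1a had none and is not described. Each gene was read from its brightest probe set, as log2(signal + 16), so that 1 unit is a 2-fold difference well above the offset. Of the 36, 30 lay above the array's own median signal on at least 3 of the 9 arrays, and Orc1, Cdc6, Cdc45, Tyms, Mcm10 and Mcm5 did not. All 36 were tested.

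The RNA came from back skin cells of CD1 female mice that carried both reporters of the Lef1RFP/K14H2BGFP genotype, a red protein under Lef1 control and a green histone fusion under keratin 14 control. Bulge cells were sorted as red negative, green positive, CD34 positive and P-cadherin low, hair germ cells as red negative, green positive, CD34 negative and P-cadherin high, and dermal papilla cells as red positive, green negative and negative for CD45, CD117 and integrin alpha 7 (in the titles also CD34). Each population was taken on postnatal days 43, 56 and 69, stages labelled as early, middle and late in telogen, each time on a single array. All mice were virgins without a treatment named, and the labels do not say how many mice went into an array. In the tests the 3 ages stood in for replicates, and with day as a term in the model the p-values rest on sampling and on day changes that differ between populations.

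Telogen is the resting phase of the hair cycle, in which the bulge holds the follicle's stem cells and the hair germ lies between the bulge and the mesenchymal dermal papilla. DNA replication starts where the origin recognition complex, Cdc6 and Cdt1 load the MCM helicase in G1. Polymerases, the sliding clamp and its loader then copy the strands in S phase, while enzymes of nucleotide synthesis supply the building blocks. Many of these genes are known targets of E2F transcription factors and are transcribed most in dividing cells.

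The labels were first set against marker genes. Cd34 stood at 11.60 to 11.76 log2 units in bulge and at or under 5.72 elsewhere, Krt14 at 10.70 to 13.29 in the epithelial arrays and at or under 5.78 in dermal papilla, and Lef1 at 6.09 to 8.86 in dermal papilla and at or under 5.40 elsewhere. RNA quality differed between arrays: the ratio of 3' to 5' GAPDH signal reached 8.34 and 7.90 on the day 43 and day 69 arrays of hair germ, where day 56 had 2.97, and ran from 3.96 to 5.09 in bulge and 3.78 to 6.62 in dermal papilla. Arrays give no count depth, so their number limits the precision. In bulk samples, a larger share of replicating cells and more RNA per cell cannot be told apart.

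Across the 36 genes, hair germ had the highest levels and dermal papilla the lowest. Their median level in hair germ on days 43, 56 and 69 came to 8.0, 7.57 and 7.02 log2 units, against 6.61, 6.94 and 6.52 in bulge and 6.31, 6.23 and 6.26 in dermal papilla. All 3 hair germ arrays lay above the other 6 arrays for 22 of the 36 genes, where 10.5% of all named genes had that order. All 3 dermal papilla arrays lay below the other 6 for 13 of them, where 12.9% of all named genes did. Both held for 9 genes, namely Orc1, Cdc6, Cdt1, Rfc4, Lig1, Rrm1, Rrm2, Tk1 and Chaf1b.

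**Figure D1:**
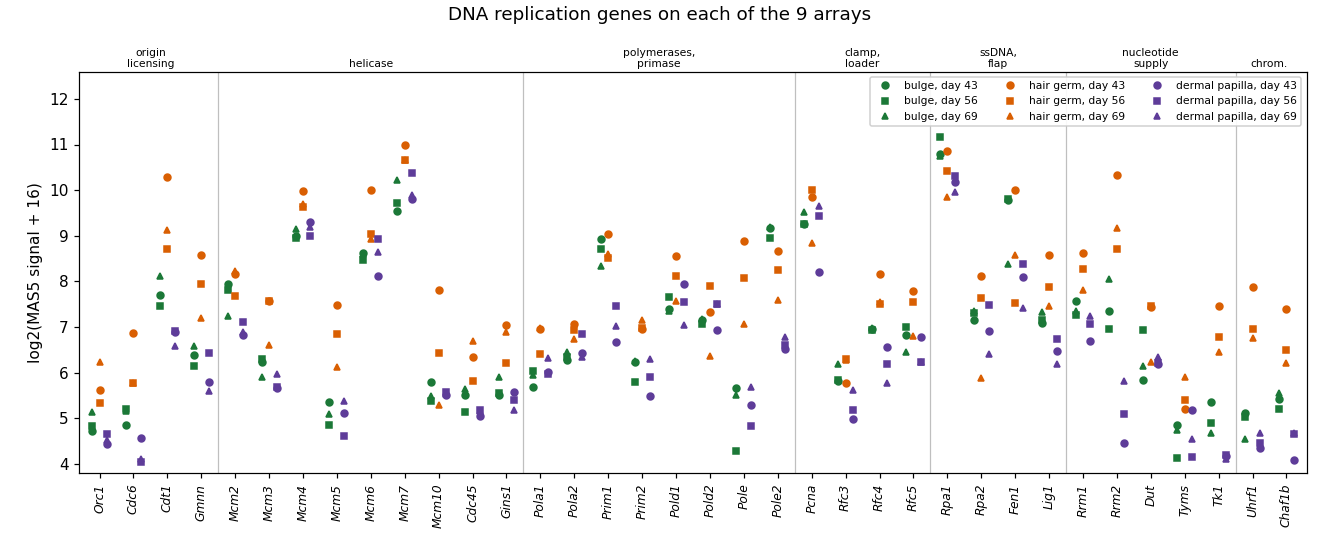
Level of each of the 36 DNA replication genes on each of the 9 arrays, as log2(MAS5 signal + 16), with genes grouped by role. Colours are populations and symbols are days; hair germ lies above the other 6 arrays for 22 genes.

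The first comparison was hair germ against bulge. Of the 36 genes, 11 were higher in hair germ, 1 was lower and 24 did not pass (limma, adjusted p below 0.05). Among all 12393 genes tested, 7.38% passed as higher and 4.04% as lower. The median difference over the 36 genes was 0.84 log2 units, beside 0.13 over all named genes. All 3 hair germ arrays were above all 3 bulge arrays for 23 of the 36 genes, against 20.7% of all named genes, and below them for 1 gene, against 10.7%. At an unadjusted p below 0.05 stood 26 of the 36, against 25.7% of all named genes. The genes that rose were spread over the machinery: the licensing genes Cdt1 and Gmnn, the helicase genes Mcm3, Mcm4, Mcm5 and Mcm7, the polymerase gene Pole, the nucleotide genes Rrm2 and Tk1, and the chromatin genes Uhrf1 and Chaf1b. The gene that fell was Pole2.

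The count of 11 moved when arrays were left out. It was 3 without the day 43 bulge array, 3 without the day 56 bulge array, 7 without the day 43 hair germ array and 6 without the day 56 hair germ array. With the 3 arrays of a GAPDH ratio over 6 left out, which also cuts hair germ to 1 array, the count was 1, namely Pole, while calls of higher genes over all named genes went from 915 to 183. The median difference over the 36 genes was 0.69 in that fit and 0.77 with the ratio as a covariate, so that array number and RNA quality cannot be told apart in the lost calls. With the filter on low values the count was 15 of 30 genes, and without the trend of variance on mean 15 of 36. Pole, Tk1, Uhrf1 and Chaf1b passed the filter only through their hair germ arrays, so the filtered count is not separate support. Fen1, at -0.62 in the fit on all 9 arrays, stood at -2.16 with the arrays of a GAPDH ratio over 6 left out. That value rests on 1 hair germ array, day 56 at 7.53. Of the 12 calls, that of Pole held under each of the 20 other settings tried. Median centring gave 7, and scaling moved the median of all genes from 0.13 to -0.01 under quantile normalization and -0.08 under median centring, where the median of the 36 genes was 0.65 and 0.62. Over all genes, 915 were called higher and 501 lower, and 652 and 713 under quantile normalization.

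**Figure D2:**
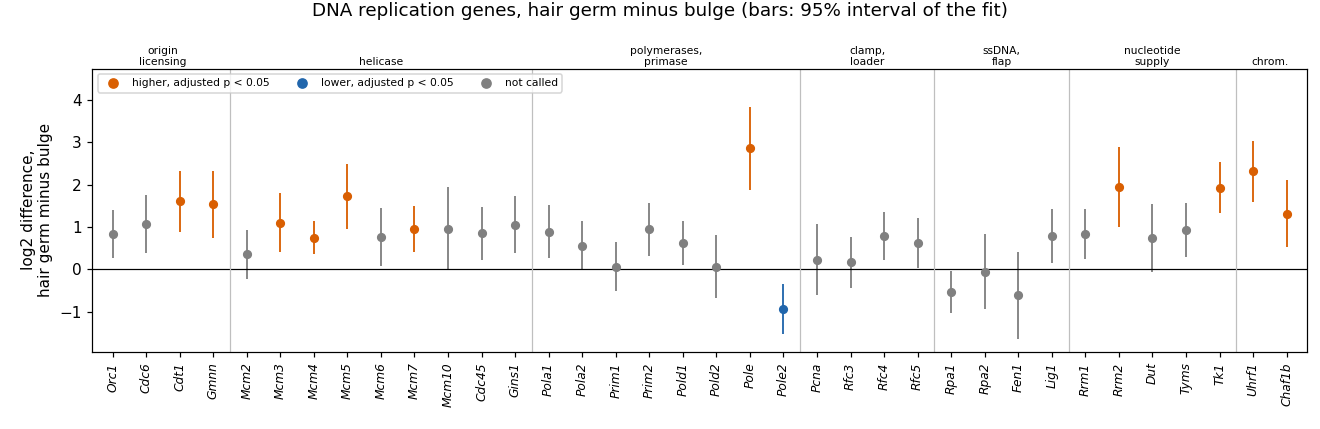
Difference between hair germ and bulge for each of the 36 genes (log2 units, vertical axis), with the 95% interval of the limma fit. Coloured points passed at adjusted p below 0.05; 11 lie above 0, Pole with the largest difference at 2.86, and Pole2 lies below 0.

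Promoter sequence is shown for members called higher in hair germ than in bulge and for members that were not. RefSeq windows (build GRCm38.p6) were found for 32 of the 37 genes, in 38 windows because some genes have several; Mcm4, Gins1, Prim2, Pole and Gmnn had none. The 250 bases before each annotated start were searched on both strands for 3 motifs: E2F-like (TTTCCCGC, TTTGGCGC, TTTCGCGC or TTTGCCGC), CCAAT, bound by NF-Y, and CHR (TTTGAA), an element of cell cycle genes. E2F-like and CCAAT matches were counted separately where they overlapped. An E2F-like match occurred in 21.1% of the member windows and in 1.86% of all 32851 windows, CCAAT in 55.3% and 33.8%, and CHR in 10.5% and 16%. The median share of G and C bases was 58.8% in the member windows and 52.4% in all windows, and its part was not tested. The 8 genes with an E2F-like match were Mcm5, Mcm7 and Uhrf1, which rose in hair germ over bulge, and Cdc6, Mcm6, Orc1, Pola1 and Rfc3, which did not pass that test. A match is a run of letters and not a shown binding site. The windows below hold 3 genes that rose and have a match, 2 that have a match and did not pass, 1 that rose without a match (Tk1) and the gene that fell (Pole2). Mcm7 and Uhrf1 have 2 windows each. The one shown was picked for its E2F-like match, and the other had 0 such matches. Capitals mark the matches, and each window runs 5' to 3' on the gene's strand and ends at the base before the start.
Mcm5 (chr8:75109259-75109508, plus strand): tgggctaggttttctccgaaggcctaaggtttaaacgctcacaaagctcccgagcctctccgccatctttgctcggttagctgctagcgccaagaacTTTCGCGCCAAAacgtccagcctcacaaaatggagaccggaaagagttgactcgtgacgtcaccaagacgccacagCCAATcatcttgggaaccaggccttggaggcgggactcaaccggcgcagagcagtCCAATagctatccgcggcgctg
Mcm7 (chr5:138171884-138172133, minus strand): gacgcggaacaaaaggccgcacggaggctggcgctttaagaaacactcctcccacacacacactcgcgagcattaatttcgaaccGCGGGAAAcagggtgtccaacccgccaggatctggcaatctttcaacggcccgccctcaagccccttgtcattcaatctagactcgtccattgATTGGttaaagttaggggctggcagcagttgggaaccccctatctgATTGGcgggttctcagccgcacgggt
Uhrf1 (chr17:56304063-56304312, plus strand): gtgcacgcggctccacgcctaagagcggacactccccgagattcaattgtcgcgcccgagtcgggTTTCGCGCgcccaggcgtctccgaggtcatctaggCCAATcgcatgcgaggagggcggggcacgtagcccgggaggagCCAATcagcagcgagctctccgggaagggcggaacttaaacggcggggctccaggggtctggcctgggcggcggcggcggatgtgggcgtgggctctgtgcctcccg
Mcm6 (chr1:128359706-128359955, minus strand): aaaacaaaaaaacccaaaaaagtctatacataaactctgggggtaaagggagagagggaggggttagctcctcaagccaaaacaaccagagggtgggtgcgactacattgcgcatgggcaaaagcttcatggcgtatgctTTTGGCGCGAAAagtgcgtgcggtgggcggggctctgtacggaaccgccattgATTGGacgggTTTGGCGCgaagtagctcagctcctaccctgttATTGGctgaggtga
Cdc6 (chr11:98907901-98908150, plus strand): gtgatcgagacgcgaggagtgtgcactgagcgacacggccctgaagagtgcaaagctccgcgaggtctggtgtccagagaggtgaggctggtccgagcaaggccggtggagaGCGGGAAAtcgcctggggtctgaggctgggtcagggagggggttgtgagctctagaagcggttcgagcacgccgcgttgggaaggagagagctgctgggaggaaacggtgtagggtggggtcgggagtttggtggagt
Tk1 (chr11:117826015-117826264, minus strand): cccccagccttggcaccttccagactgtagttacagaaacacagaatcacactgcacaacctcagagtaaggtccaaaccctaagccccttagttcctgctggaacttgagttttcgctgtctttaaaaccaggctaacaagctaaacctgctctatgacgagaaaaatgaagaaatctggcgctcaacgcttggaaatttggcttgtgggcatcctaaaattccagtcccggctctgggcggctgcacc
Pole2 (chr12:69228191-69228440, minus strand): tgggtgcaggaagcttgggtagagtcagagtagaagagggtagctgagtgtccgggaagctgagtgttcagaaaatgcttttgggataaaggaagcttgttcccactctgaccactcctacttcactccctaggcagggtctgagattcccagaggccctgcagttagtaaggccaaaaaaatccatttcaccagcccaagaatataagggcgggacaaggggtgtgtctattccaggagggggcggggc

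In the Mcm5 window the letters TTTCGCGC and TTTGGCGC, the latter on the other strand, overlapped, from position -153 to -142 relative to the start. The Mcm6 window had 3 E2F-like matches and 2 CCAAT matches. Tk1 and Pole2 had none of the 3 motifs in these windows.

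All 4 origin licensing genes were higher in each hair germ array than in each bulge array, against 20.7% of all named genes. Dermal papilla lay below bulge without overlap for 3 of the 4, against 21.1% of all named genes, and overlapped it for Gmnn. None of the 4 passed between dermal papilla and bulge. Cdt1, which brings the MCM helicase to origins, stood at 10.29, 8.70 and 9.12 log2 units in hair germ on days 43, 56 and 69, at 7.70, 7.46 and 8.12 in bulge and at 6.88, 6.91 and 6.59 in dermal papilla. The hair germ level exceeded that of bulge by 1.61 ± 0.32 log2 units (SE), a 3.06-fold difference (limma, adjusted p = 0.00997). The call ended in 4 of the 20 other settings, among them the one with all Cdt1 probe sets averaged, where the difference was 0.88. Gmnn encodes geminin, which holds Cdt1 inactive after licensing. It read 8.58, 7.95 and 7.19 in hair germ and 6.14 to 6.58 in bulge, a difference of 1.54 ± 0.35 (SE; limma, adjusted p = 0.0197). The licensing gene and its inhibitor were thus higher in the same arrays. In 5 of the 20 other settings the call of Gmnn was lost. Cdc6, the loading ATPase, was at 6.86, 5.78 and 5.77 in hair germ and 4.85 to 5.21 in bulge, and Orc1, the large subunit of the origin complex, at 5.61, 5.33 and 6.24 against 4.71 to 5.14. Their differences of 1.07 and 0.84 did not pass (limma, adjusted p = 0.052 and 0.0626), although the arrays did not overlap.

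In the fit 7795 of all 12393 named genes were higher in hair germ than in bulge, whether called or not. All 9 helicase genes were, and 4 of them passed, where 7.38% of all named genes passed as higher. Mcm5 showed the largest of these differences, at 7.49, 6.85 and 6.13 in hair germ against 5.36, 4.85 and 5.10 in bulge and 5.12, 4.62 and 5.38 in dermal papilla. The difference from bulge was 1.72 ± 0.35 log2 units (SE), or 3.29-fold (limma, adjusted p = 0.0103), and the groups did not overlap. Mcm3 differed by 1.10 (limma, adjusted p = 0.0481), Mcm7 by 0.95 (limma, adjusted p = 0.0337) and Mcm4 by 0.75 (limma, adjusted p = 0.0225). Of the 20 other settings, Mcm3 lost its call in 14, Mcm7 in 11 and Mcm4 in 9. Median centring and the preference for unshared name endings were among these for all 3. Mcm5 lost its call in 3 of 19. The other subunits of the MCM ring, Mcm2 and Mcm6, differed by 0.36 and 0.76 and did not pass. Mcm10, a firing factor, had the widest range of the helicase genes on hair germ arrays, at 7.82, 6.42 and 5.29, and its lowest array overlapped bulge at 5.37 to 5.80. Cdc45 and Gins1, which join the MCM ring in the active helicase, differed by 0.85 and 1.05 without overlap and did not pass (limma, adjusted p = 0.0823 and 0.0503).

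Of the 8 polymerase and primase genes, 1 rose, 1 fell and 6 did not pass in hair germ against bulge. The shares over all named genes were 7.38% higher and 4.04% lower. The difference was positive for 7 of 8, against 7795 of all 12393 named genes. The median over the 8 was 0.59, and 5 of 8 had an unadjusted p below 0.05, against 25.7% of all named genes. Pole, the catalytic subunit of DNA polymerase epsilon on the leading strand, stood at 8.88, 8.08 and 7.06 in hair germ, at 5.66, 4.28 and 5.50 in bulge and at 5.30, 4.82 and 5.69 in dermal papilla. Hair germ exceeded bulge by 2.86 ± 0.44 log2 units (SE), or 7.26-fold (limma, adjusted p = 0.00252), the largest difference among the 36 genes. That difference ran from 1.87 to 3.83 over the 20 other settings, and the bulge value of day 56 lay near the offset. Pole2, a smaller subunit of the same enzyme, went the other way: 9.18, 8.94 and 9.20 in bulge, 8.66, 8.25 and 7.60 in hair germ and 6.51, 6.60 and 6.79 in dermal papilla. The hair germ minus bulge difference was -0.93 ± 0.26 (SE; limma, adjusted p = 0.0455). That call ended in 9 of the 20 other settings, with the value between -1.19 and -0.59, among them the one with the GAPDH ratio as a covariate (-0.81; limma, adjusted p = 0.114). Prim1, the catalytic primase subunit, was at 8.92, 8.72 and 8.33 in bulge and 9.03, 8.52 and 8.60 in hair germ, overlapping, with a difference of 0.06 and a 95% interval from -0.51 to 0.64. Prim2, the other primase subunit, differed by 0.94 with no overlap and did not pass (limma, adjusted p = 0.0586). The polymerase alpha genes Pola1 and Pola2 differed by 0.89 and 0.56, and the polymerase delta genes Pold1 and Pold2 by 0.62 and 0.06, none past the threshold.

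Genes of the clamp, single-strand binding and flap processing gave 0 of 8 calls between hair germ and bulge (limma), with 4 of 8 at an unadjusted p below 0.05. Over all named genes 7.38% passed as higher, 4.04% passed as lower and 25.7% had an unadjusted p below 0.05. Pcna, the sliding clamp and a common proliferation marker, read 9.85, 10.01 and 8.84 in hair germ and 9.25, 9.25 and 9.51 in bulge. The groups overlapped, and the difference of 0.23 had a 95% interval from -0.61 to 1.06. The clamp loader gene Rfc4 was at 8.17, 7.51 and 7.55 in hair germ and 6.94 to 6.97 in bulge, without overlap and not past the threshold (difference 0.79; limma, adjusted p = 0.0751), and Rfc5 and Rfc3 differed by 0.62 and 0.16. Lig1, the ligase that seals lagging-strand fragments, differed by 0.78 without overlap (limma, adjusted p = 0.111). The single-strand binding genes Rpa1 and Rpa2 were at -0.53 and -0.06 and Fen1, the flap nuclease, at -0.62, none of them past the threshold.

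Nucleotide supply and chromatin genes held the next largest differences after Pole. Uhrf1, which reads hemimethylated DNA behind the fork and recruits the maintenance methyltransferase, stood at 7.88, 6.96 and 6.75 in hair germ, at 5.11, 5.02 and 4.54 in bulge and at 4.34, 4.46 and 4.68 in dermal papilla. The groups of hair germ and bulge did not overlap, and the difference was 2.31 ± 0.33 log2 units (SE), or 4.94-fold (limma, adjusted p = 0.00154). It ran from 1.34 to 3.21 over the 20 other settings. The dimmer Uhrf1 probe set was at 5.17, 5.26 and 4.54 in hair germ and 4.81, 4.19 and 4.27 in bulge, overlapping. It differed by 0.57 and did not pass (limma over all probe sets, adjusted p = 0.184). Tk1, the thymidine kinase of S phase, was at 7.46, 6.78 and 6.46 in hair germ, 5.35, 4.89 and 4.68 in bulge and 4.18, 4.19 and 4.11 in dermal papilla. Its difference was 1.93 ± 0.27 (SE; limma, adjusted p = 0.00153). Uhrf1 and Tk1 each lost the call in 1 of the 20 other settings, the one that leaves out the arrays with a GAPDH ratio over 6. Their differences in that fit were 2.11 and 1.92 (limma, adjusted p = 0.064 and 0.0531). Rrm2, the regulated subunit of ribonucleotide reductase, read 10.34, 8.72 and 9.16 in hair germ, 7.34, 6.96 and 8.06 in bulge and 4.46, 5.09 and 5.82 in dermal papilla. Hair germ exceeded bulge by 1.95 ± 0.42 (SE; limma, adjusted p = 0.0147), while its partner subunit Rrm1 differed by 0.84 (limma, adjusted p = 0.0711). Rrm2 lost its call in 5 of the 20 other settings. Chaf1b, a histone chaperone subunit, differed by 1.31 (limma, adjusted p = 0.0407). That call was lost in 11 of the 20 other settings, among them quantile normalization and median centring. Tyms, thymidylate synthase, and Dut, which clears dUTP, differed by 0.93 and 0.74 and did not pass.

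Several genes gave different answers by probe set. Of the 36 genes, 21 had several probe sets, and in 7 of these the sign of the difference between hair germ and bulge was not the same for all, namely Cdt1, Pola2, Prim1, Rfc3, Rpa1, Rpa2 and Fen1. Of these Cdt1 was called, with probe sets at 1.61, 1.07 and -0.03, the last near the offset on every array. Fen1 was the widest: its brightest probe set, whose name ends in _x_at, a mark of probes that can hybridise to other transcripts, was at 10, 7.53 and 8.58 in hair germ and 9.78, 9.81 and 8.39 in bulge. The other Fen1 probe set was at 7.23, 7.45 and 6.20 in hair germ and 5.21, 5.45 and 6.0 in bulge, without overlap. Their differences were -0.62 ± 0.46 and 1.41 ± 0.44 (SE; limma over all probe sets, adjusted p = 0.458 and 0.0726). Mcm2 differed in size and not in sign, with 0.36 from a probe set ending in _s_at and 1.57 ± 0.33 (SE) from the other (limma over all probe sets, adjusted p = 0.0144). Rpa1 read -0.53 and 0.51, neither past the threshold. For Rrm2 all 3 probe sets were higher in hair germ, at 1.95, 1.47 and 1.17. With unshared name endings preferred, 8 of the 36 genes were called higher in hair germ, Mcm2 among them, and Mcm3, Mcm4, Mcm7 and Rrm2 were not.

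**Figure D3:**
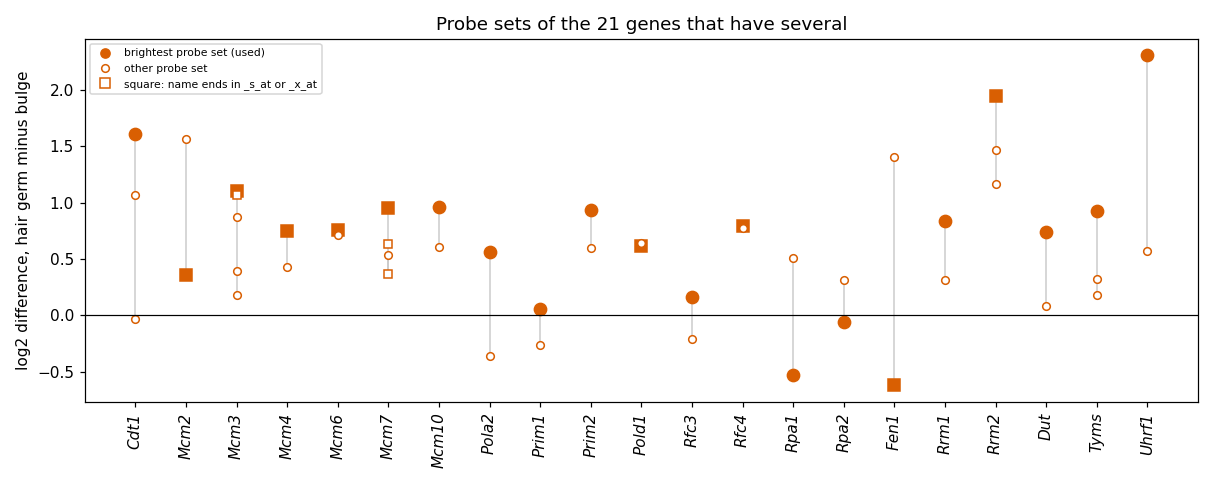
Difference between hair germ and bulge (log2 units, vertical axis) for each probe set of the 21 genes with several. Filled symbols are the brightest probe set and squares are names ending in _s_at or _x_at; the Fen1 probe sets lie at -0.62 and 1.41.

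The second comparison set dermal papilla against each epithelial population. Against bulge, 4 of the 36 genes fell, 0 rose and 32 did not pass (limma). Among all named genes 11.3% passed as lower and 10.8% as higher, so the 4 that fell were near the share of all genes. The median difference over the 36 genes was -0.35, beside -0.00 over all named genes. All 3 dermal papilla arrays were below all 3 bulge arrays for 15 of the 36 genes, against 21.1% of all named genes, and above them for 0, against 19.8%. At an unadjusted p below 0.05 stood 13 of the 36, against 31.8%. The difference was -2.47 ± 0.26 (SE; limma, adjusted p = 5.67e-05) for Pole2 and -2.33 ± 0.42 (limma, adjusted p = 0.00223) for Rrm2. It was -1.60 ± 0.26 (limma, adjusted p = 0.00101) for Prim1 and -0.76 ± 0.22 (limma, adjusted p = 0.0336) for Rpa1. The call was lost in 7 of the 20 other settings for Rpa1 and in 2 for Rrm2. The dimmer Rpa1 probe set differed by -0.35 and did not pass (limma over all probe sets, adjusted p = 0.522). Prim1 was at 6.68, 7.46 and 7.03 in dermal papilla, below every bulge array. Pole2 and Prim1 were called lower under each of the 20 other settings. Without the day 43 hair germ array, which enters through the shared spread, 9 genes fell. The helicase genes did not separate these populations, with 0 of 9 called and 1 of 9 at an unadjusted p below 0.05. Mcm6 differed by 0.00, with a 95% interval from -0.68 to 0.68, Mcm5 by -0.07 (-0.84 to 0.71) and Mcm10 by -0.01 (-0.99 to 0.97), so differences of up to about 2-fold in either direction lie inside these intervals.

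Against hair germ, which enters both comparisons, 25 of the 36 genes fell in dermal papilla, 0 rose and 11 did not pass (limma), where 15.6% of all named genes passed as lower and 10% as higher. The median over the 36 genes was -1.15, beside -0.13 over all named genes. All 3 dermal papilla arrays were below all 3 hair germ arrays for 27 of the 36, against 22.7% of all named genes, and above them for 0, against 13.3%. At an unadjusted p below 0.05 stood 28 of the 36, against 36.6%. The difference of Rrm2 was -4.28 ± 0.42 (SE; limma, adjusted p = 3.44e-05). The differences of Tk1, Pole, Uhrf1 and Cdt1 were -2.74 ± 0.27, -2.74 ± 0.44, -2.70 ± 0.33 and -2.58 ± 0.32. Several of these genes lay near the offset in dermal papilla, so the sizes and their order depend on the pseudocount: with 1 in place of 16, Rrm2 and Tk1 stood at -5.23 and -5.21, and with 64 at -3.12 and -1.36. All 4 licensing genes and both chromatin genes passed, with 7 of 9 helicase genes, 4 of 8 polymerase and primase genes, 4 of 5 nucleotide genes, 3 of 4 clamp genes and 1 of 4 single-strand binding and flap genes. The count was 10 with the arrays of a GAPDH ratio over 6 left out. Of the 25 calls, 9 held under every setting tried: Cdc6, Cdt1, Chaf1b, Mcm5, Pole, Pole2, Rrm2, Tk1 and Uhrf1. Mcm7 lost its call in 15 of 20 settings, Tyms in 13 of 19, and Mcm4 and Rfc3 in 12 of 20 each. Pold2, Rpa1, Rpa2, Pcna and Fen1 differed by 0.12, -0.23, -0.28, -0.47 and -0.74 with overlapping arrays, and none passed.

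**Figure D4:**
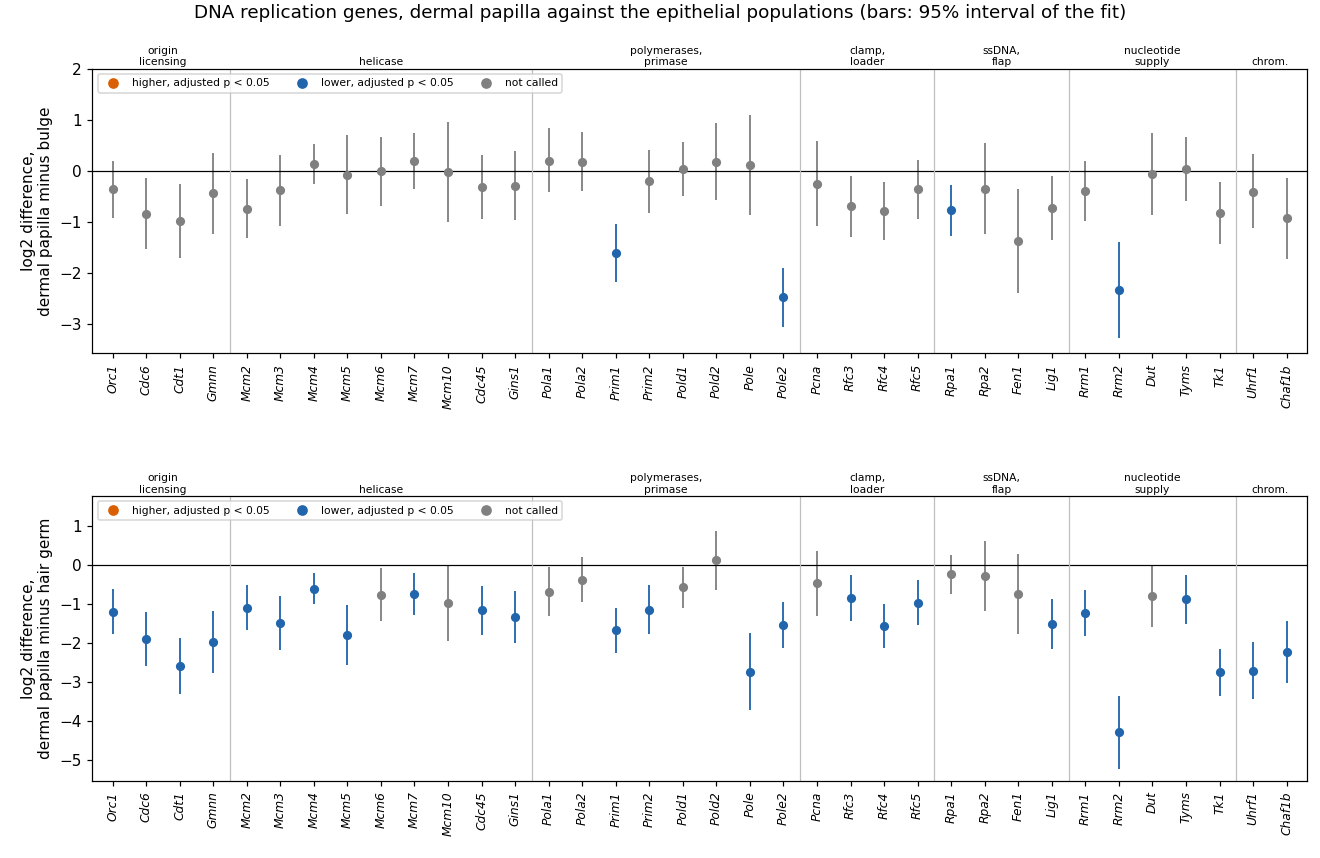
Difference of dermal papilla from bulge (upper panel) and from hair germ (lower panel) for each of the 36 genes, in log2 units with the 95% interval of the limma fit. Blue points passed as lower: 4 in the upper panel and 25 in the lower.

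The third question was how the genes changed through telogen. Hair germ levels were highest on day 43. In hair germ 25 of the 36 genes had their highest array on day 43, against 21.4% of all named genes, and 16 of the 36 were at least 2-fold lower on day 69 than on day 43, against 3.95%. On day 69, 0 of the 36 were at least 2-fold higher, against 11% of all named genes. On day 56, 5 of the 36 were at least 2-fold lower than on day 43, against 2.52%. On each of these days 29 of the 36 lay below day 43 by any amount, where 41.0% of all named genes did on day 56 and 35.6% on day 69. The median difference from day 43 was -0.49 on day 56 and -0.99 on day 69, beside 0.10 and 0.20 over all named genes. The widest falls by day 69 were in Mcm10 at -2.53, Rpa2 at -2.23 and Pole at -1.82. The genes that ended higher were Orc1 (0.63), Tyms (0.71), Rfc3 (0.50), Cdc45 (0.36), Prim2 (0.19), Mcm2 (0.06) and Pola1 (0.01). With 1 array per population and day there is no test of these differences. The GAPDH ratio of these arrays was 8.34 on day 43, 2.97 on day 56 and 7.90 on day 69, and its part in the day differences was not tested.

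The other populations showed no such order. In bulge the median difference from day 43 was -0.06 on day 56 and 0.03 on day 69, and 1 of the 36 genes, Fen1, was at least 2-fold lower on day 69, against 0.936% of all named genes. In dermal papilla it was 0.14 and 0.09, and Pcna (1.44) and Rrm2 (1.36) were at least 2-fold higher on day 69, against 5.45% of all named genes. Pcna in dermal papilla read 8.21, 9.43 and 9.66 on days 43, 56 and 69, and the day 43 array had the highest GAPDH ratio of that population, 6.62. The gap between hair germ and bulge was thus widest on day 43, with a median over the 36 genes of 1.19 then, 0.69 on day 56 and 0.57 on day 69, beside 0.01, 0.12 and 0.21 over all named genes. On day 43 34 of the 36 genes were higher in hair germ than in bulge, on day 56 31 and on day 69 30. The share of all named genes by day was not counted. With the 3 populations fitted jointly, no gene passed for day 69 or day 56 against day 43 (limma, 0 of 12393). Of the 36 genes, 3 had an unadjusted p below 0.05 for day 69, against 6.83% of all named genes, and 0 for day 56, against 4.59%. The 3 were Pold1 at -0.64, Rfc5 at -0.63 and Fen1 at -1.16 (limma, adjusted p = 0.723 for each).

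**Figure D5:**
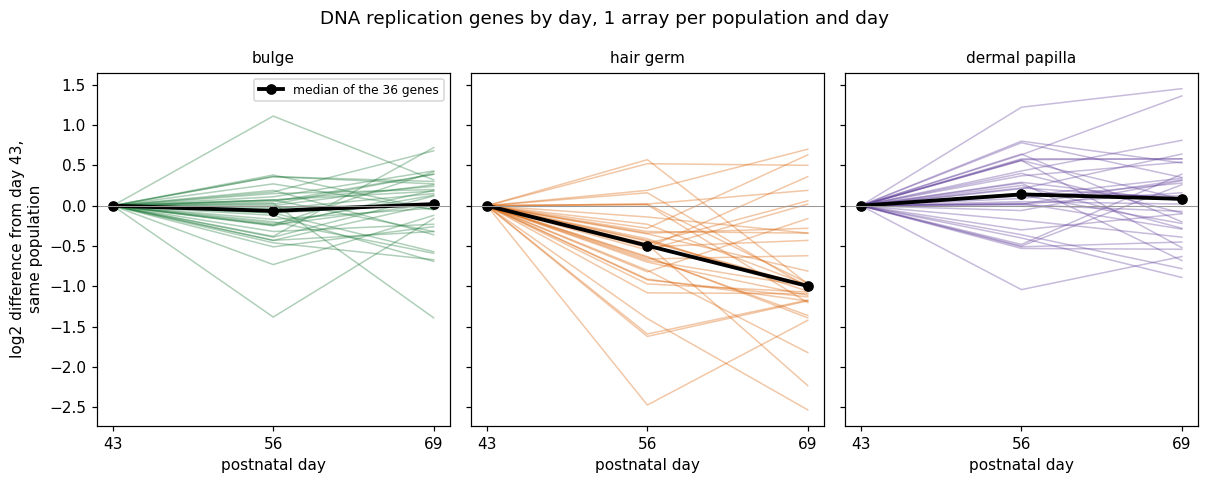
Difference of each of the 36 genes from its own day 43 array, by postnatal day, in bulge, hair germ and dermal papilla (log2 units). Thin lines are genes and the black line is their median, which reaches -0.99 in hair germ on day 69 and stays between -0.06 and 0.14 in the others.

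Other genes of the pathway were read from lists outside the 36. In hair germ against bulge, 7.38% of all named genes passed as higher and 4.04% as lower, with a median of 0.13. Of 32 measured further replication genes, 8 rose and 1 fell, with a median of 0.37. The largest differences were in Dbf4 (2.06), which activates the kinase that fires origins, the fork protection gene Timeless (1.93), the uracil repair gene Ung (1.91) and the nuclease-helicase gene Dna2 (1.74). The gene that fell was Pole4 at -1.55 (SE 0.20, limma, adjusted p = 0.00103), named after its value was seen. Like Pole2 it encodes a small subunit of polymerase epsilon. It stood at 9.08 ± 0.30 (SD, n = 3) in bulge and 7.54 ± 0.44 in hair germ. Pole3, the other small subunit on that list, differed by -0.27 and did not pass (limma, adjusted p = 0.465). Of 15 G1/S regulators 5 rose and 0 fell, with a median of 0.69: Ccna2 (2.42), the cyclin of S phase, the repressor genes E2f8 (1.95) and Rbl1 (1.29), the phosphatase gene Cdc25a (1.09) and Tfdp1 (0.90), a partner of E2F proteins and also named after its value was seen. Of 10 other nucleotide supply genes 2 rose, Samhd1 (1.88), which degrades deoxynucleotides, and the purine synthesis gene Gart (0.84).

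Mitosis genes, the most similar group in the cell cycle, were read beside them. All 24 measured mitosis genes rose in hair germ against bulge, each at least 2-fold, with a median of 2.45 and Mki67 (4.11), Top2a (3.50), Cdc20 (3.47) and Kif2c (3.18) in front. Among the 36 replication genes 11 were at least 2-fold higher, with a median of 0.84. Of all 12393 named genes 856 were, with a median of 0.13. In bulge 4 to 7 of the 24 mitosis genes and 22 to 26 of the 36 replication genes were above the array's median signal, and in hair germ 22 to 24 and 31 to 33. Of all 12393 named genes 6919 to 6935 were above it in bulge and 6914 to 6959 in hair germ. The difference between the groups of genes was not tested. By day the median of the mitosis genes in hair germ was -1.05 on day 56 and -0.85 on day 69 from day 43, where that of the replication genes was -0.49 and -0.99.

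Markers of other cell types moved with the comparison of hair germ and bulge. For scale, 7.38% of all named genes passed as higher in hair germ and 4.04% as lower. Of 6 measured epidermal differentiation markers 4 were higher in hair germ, with a summed signal of 14036 to 34566 there and 2168 to 4231 in bulge, and Ivl was above the array median in neither. Of 6 melanocyte markers 4 were higher and 1 lower, with sums of 2177 to 5025 in hair germ and 2284 to 2995 in bulge, where Tyrp1, Kit and Sox10 never passed the array median. Of 7 leukocyte markers 1 was higher and 2 lower, with sums of 257 to 514 in hair germ and 447 to 693 in bulge, and Fcer1g was above the median in neither. The part of these cells in the replication gene differences was not tested. No endothelial marker of 5 and, in bulge, no dermal papilla marker of 8 lay above the array's median signal. In hair germ 6 of the 8 never did, while Sox2 and Crabp1 did on some array. The 8 summed to 111 to 170 in hair germ and 51 to 67 in bulge, and 0 were called between these populations. In dermal papilla the 8 keratinocyte markers summed to 457 to 1435, against 28667 to 47069 in the epithelial populations, and 6 dermal fibroblast markers to 10509 to 16258, against 228 to 1285.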

How the data were processed

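The authors deposited MAS5 probe set signals made in GCOS, per the submitters' processing notes: intensity values on a linear scale, for 22690 probe sets on 9 arrays. Versions and the scaling target are not given in the sources used here. Per the labels' protocols, RNA was amplified in 2 rounds before labelling.

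From these, 64 control probe sets were set aside. Of the rest, 20380 probe sets pointed to 1 gene, 691 to several and 1555 to none. Each of 12393 genes was represented by its brightest probe set (mean over 9 arrays), as log2(signal + 16), without further scaling or a filter on low values, so that every gene of the list with a probe set was tested. A limma model (R 4.3.3, limma 3.58.1) with additive terms for population and day took in all 9 arrays, leaving 4 residual degrees of freedom, and eBayes used a trend of variance on mean. Two-sided p-values were adjusted by Benjamini-Hochberg over all genes and called below 0.05. Day is a design factor and stayed in the model; the labels do not say whether the arrays of a day share mice. Nothing in the labels says more of separate animals, so p-values measure the spread between these arrays. The fit was tested on simulated data.

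The 36 genes and the other lists were chosen with earlier results of these data known. Any of the 36 could be named, and of each other pathway list the up to 4 called genes of largest difference between hair germ and bulge, or up to 2 where none was called. Alternatives were pseudocounts of 1 and 64, a filter on low values (above the array median on at least 3 arrays), quantile normalization, median centring, averaged probe sets, no day term, no trend, the GAPDH ratio as a covariate and leaving out each array. Preferring probe sets without shared name endings, and leaving out arrays with a GAPDH ratio over 6, were added after seeing the data.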

Additional observations from a re-analysis of the deposited data

Results flagged for a closer look

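Changes between days 43 and 69 differed between populations for 4 results, and with 1 array per population and day these differences were not tested. The median over the 36 genes was -0.99 in hair germ and near 0 in bulge (0.03) and dermal papilla (0.09), in each of which 21 genes were higher and 15 lower. Hair germ minus bulge was -1.02 and dermal papilla minus hair germ was 1.08. Pcna and Rrm2 were flagged for changes of at least 2-fold in opposite directions in hair germ and dermal papilla. They were the 2 of the 36 at least 2-fold higher on day 69 in dermal papilla, against 5.45% of all named genes. Pcna was at -1.02 in hair germ and 1.44 in dermal papilla, 2.46 apart. Rrm2 was at -1.18 in hair germ and 1.36 in dermal papilla, 2.54 apart. Its dermal papilla level on day 43, 4.46 log2 units, lay near the offset. The GAPDH 3'/5' ratio was 8.34 and 7.90 on the hair germ arrays of these days and 6.62 and 3.78 on those of dermal papilla; its part was not tested.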

How the results depend on the processing

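Over 20 other settings, 2142 values of the 36 genes in the 3 population comparisons were refitted: 1847 kept their direction and side of the threshold, 155 lost a call, 69 gained one, 0 called values changed sign, and 71 values changed sign without being called in either fit. For genes higher in hair germ than in bulge the count of 11 became 7 with median centring and 1 without the arrays of a GAPDH ratio over 6, and it was 15 with the filter and 15 without the mean-variance trend, and ran from 3 to 13 when 1 array was left out. Pole2, the 1 gene lower, was not called (0) without the mean-variance trend, with the GAPDH ratio as a covariate, or when some arrays were left out (0 to 1). Genes lower in dermal papilla than in bulge, 4 in the report, numbered 9 with a pseudocount of 1, 8 with the filter, 8 with median centring, 7 without the trend and 3 to 9 with 1 array left out. Genes lower in dermal papilla than in hair germ, 25 in the report, numbered 10 without the arrays of a GAPDH ratio over 6 and 19 to 24 with 1 array left out. With no replicate block (the day term left out) the counts were 13 higher in hair germ than in bulge, 3 lower in dermal papilla than in bulge and 24 lower than in hair germ. The filter leaves 7772 genes to test, 30 of the 36 among them. Pole, Tk1, Uhrf1 and Chaf1b passed it only through their hair germ arrays. Leaving out arrays leaves fewer residual degrees of freedom, and a lone array of a group is assumed to vary like the others. The cause of the remaining changes was not tested. Signals near the offset limit the fold of dim genes.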
